A study of Mus musculus with 16 samples.

Results

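Mouse embryonic stem (ES) cells with little Trim33 transcript were compared after activation or blockade of the activin and Nodal pathway. The comparison holds 4 of the 16 libraries of the series, chosen from the 8 libraries of the Trim33 table because their Trim33 value was below 5 RPKM (reads scaled to gene length and library depth). In 2 of them, labelled Trim33 KO, the cells received 50 ng/ml activin A. In the other 2, labelled WT, they received 10 µM SB431542. Both treatments lasted 2 h. All 4 libraries come from cells labelled E14Tg2a.IV, strain C57BL/6, grown without feeders in LIF medium with serum. The labels do not say how the knockout was made, how many clones it comprised or whether replicates came from separate cultures. The p-values therefore reflect the spread among replicates of the 8 libraries of the Trim33 table alone, which may be technical. The table holds no untreated library, so each difference sets a ligand against an inhibitor and does not show which of these treatments moved a gene.

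Activin A is a secreted dimer of the TGF-beta family. It binds type II receptors and the type I receptor encoded by Acvr1b, which phosphorylates SMAD2 and SMAD3; these join SMAD4 and bind DNA with partners such as FOXH1. SB431542 blocks the kinase of the type I receptors of activin, Nodal and TGF-beta and leaves those of BMP largely untouched. In ES cells the pathway is kept on by Nodal made by the cells themselves, and among its best-known direct targets are Lefty1 and Lefty2, which encode secreted inhibitors of Nodal, and Smad7, which encodes an inhibitory SMAD. TRIM33, of the TIF1 family, reads histone marks through its PHD finger and bromodomain and can bind phosphorylated SMAD2 and SMAD3.

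Trim33 read 2.53 and 2.79 RPKM in the activin A libraries labelled KO, and 2.94 and 2.44 RPKM in the SB431542 libraries labelled WT. The WT label of these SB431542 libraries is therefore contradicted by their Trim33 level. Trim33 read 20.1 and 23.5 RPKM in the activin A libraries labelled WT and 18.3 and 24.6 RPKM in the SB431542 libraries labelled KO, so that KO label is contradicted as well. An exchange of genotype labels between the SB431542 libraries would give these values, and was not tested. The highest value inside the limit was thus 2.94 RPKM and the lowest outside it 18.3 RPKM. These values chose the libraries and were not tested. Each library is called by its label below, and the sets are called Trim33-low and Trim33-high. Trim33 spans bases 103279293 to 103358775 of chromosome 3 (plus strand, GRCm38, the assembly of mm10) and has 20 exons in its longest coding transcript, and 1 value per gene does not show which exons gave the remaining reads.

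Transcripts of the Y chromosome were absent or nearly so from all 4 Trim33-low libraries. Eif2s3y, a Y-linked translation factor gene, read 0.0651 and 0 RPKM with activin A and 0.143 and 0.0647 RPKM with SB431542. It read 38.3 to 41.0 RPKM in the 4 Trim33-high libraries. Y-linked genes thus separated Trim33-low from Trim33-high libraries and did not separate the treatments within the Trim33-low set.

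**Figure D1:**
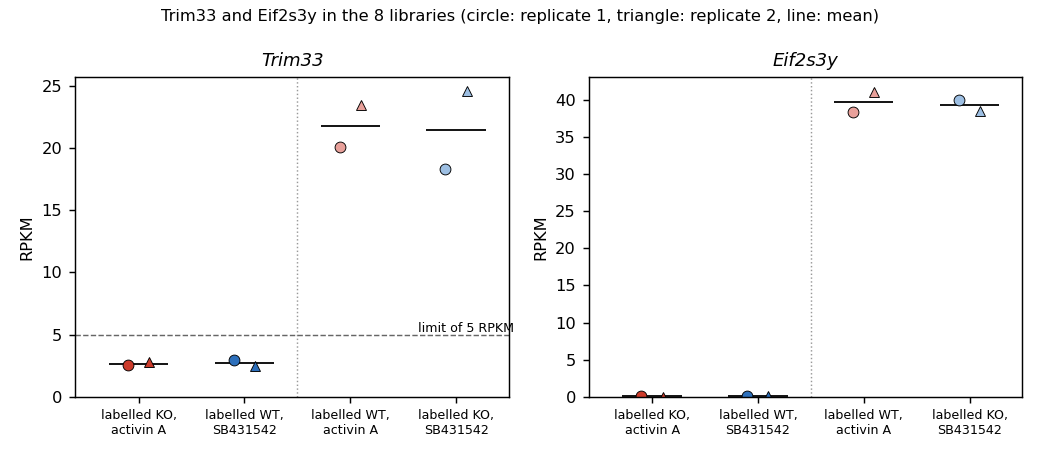
Trim33 and Eif2s3y in RPKM (vertical axes) in the 4 labelled groups (horizontal axis). Circles are replicate 1, triangles replicate 2 and lines the mean of 2 libraries; the dashed line is the limit of 5 RPKM. The libraries labelled KO with activin A and WT with SB431542 lie between 2.44 and 2.94 RPKM for Trim33 and at or below 0.143 RPKM for Eif2s3y.

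Recovered depth was 34600000 to 39500000 reads in the Trim33-low libraries, so 1 RPKM stands for 34.6 to 39.5 reads per kilobase of gene. The ES cell markers were present: the 9 fixed markers summed to 1903 and 1922 RPKM with activin A and 1860 and 1864 RPKM with SB431542. Pou5f1, the central pluripotency factor gene, read 811 to 946 RPKM over the 4 libraries. Some markers of other cell types were unequal between replicates. The 7 fibroblast markers summed to 42.0 and 14.2 RPKM with activin A and 36.2 and 11.0 RPKM with SB431542, and the 6 trophectoderm markers to 29.9 and 15.0 RPKM against 28.1 and 13.5 RPKM. In the sums of both lists replicate 1 was the higher library of each treatment and the treatments overlapped. The 8 primitive endoderm markers summed to 4.33 to 8.34 RPKM over the 4 libraries. The 5 neural markers summed to 134.6 and 122 RPKM with activin A and 132 and 111 RPKM with SB431542, against 53.8 to 66.7 RPKM in the Trim33-high libraries. Nearly all of this was Tubb3, a tubulin gene, at 108.7 to 131 RPKM in Trim33-low and 51.5 to 62.7 RPKM in Trim33-high libraries, while Neurog2, a proneural factor gene, was at or below 0.160 RPKM in the Trim33-low ones. The part of these markers in the results below was not tested. Of the fibroblast markers, Lum and Postn were at or below 0.307 RPKM in all 4 libraries, and Col1a1, a collagen gene, led with 27.4, 5.07, 22.4 and 3.60 RPKM. Thy1 was instead higher in replicate 2, at 4.20 and 5.81 RPKM with activin A and 4.41 and 5.22 RPKM with SB431542. Dcn was higher in replicate 2 with activin A only, at 0.0691 and 0.385 RPKM. Fewer cells of a type and less RNA per cell cannot be told apart in bulk samples.

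With activin A against SB431542, 6 genes were higher in the Trim33-low libraries and none was lower. Lefty1, Smad7, Fgf15, Chst15 and Epha2, the 5 described here, rose 2.46-fold (Epha2) to 20.2-fold (Lefty1) in mean RPKM. Of 11914 genes tested, the 6 calls are 0.0504% (limma on log2(RPKM + 1), Benjamini-Hochberg adjusted p under 0.05 over all genes tested, with the spread estimated over all 8 libraries of the table). At an unadjusted p under 0.05, limma gave 137 genes higher (1.15%) and 58 lower (0.487%), together 1.64% of those tested. The lowest adjusted p of a lower gene was 0.0617.

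Lefty1, the Nodal inhibitor gene, had the largest log2 difference of the calls. It read 191 and 248 RPKM with activin A and 7.06 and 14.7 RPKM with SB431542. The lower activin A library thus lay far above the higher SB431542 library. The log2 difference was 4.28 ± 0.33 (SE, limma adjusted p = 0.00640). Lefty1 has 4 exons within bases 180935022 to 180938400 of chromosome 1 (plus strand).

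Smad7, whose product blocks SMAD2 and SMAD3 activation at the receptor, read 20.6 and 20.4 RPKM with activin A and 3.41 and 3.24 RPKM with SB431542. The replicates lay close together and the treatments far apart. Its mean was 6.16-fold higher with activin A, a log2 difference of 2.31 ± 0.22 (SE, limma adjusted p = 0.0127). Its bases are 75367529 to 75395935 of chromosome 18 (plus strand).

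Fgf15, an FGF ligand gene, was at a low level in all 4 libraries. It read 7.75 and 4.90 RPKM with activin A and 0.981 and 0.634 RPKM with SB431542. The activin A libraries differed from each other by more than the SB431542 libraries did, but every one of them was higher. The log2 difference was 2.00 ± 0.22 (SE, limma adjusted p = 0.0250). Fgf15 spans bases 144896531 to 144900953 of chromosome 7 (plus strand).

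The remaining pair described are Epha2, a receptor tyrosine kinase gene of the Eph family, and Chst15, which encodes a sulfotransferase that modifies chondroitin sulfate. Epha2 read 53.9 and 51.8 RPKM with activin A and 23.4 and 19.6 RPKM with SB431542. Chst15 read 3.27 and 3.43 RPKM with activin A and 0.439 and 0.457 RPKM with SB431542. For both, replicates lay close together and the treatments apart. The log2 differences were 1.26 ± 0.15 for Epha2 and 1.59 ± 0.20 for Chst15 (SE, limma adjusted p = 0.0454 for each). Epha2 has 17 exons within bases 141301240 to 141329384 of chromosome 4 (plus strand), and Chst15 has 8 exons within bases 132235780 to 132317228 of chromosome 7 (minus strand).

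Leaving out any 1 of the 4 libraries kept Lefty1 among the calls but left only 1 or 2 genes higher in all. Fitting the 4 Trim33-low libraries alone left 1, Smad7 (adjusted p = 0.172 for Lefty1, with the same log2 difference).

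**Figure D2:**
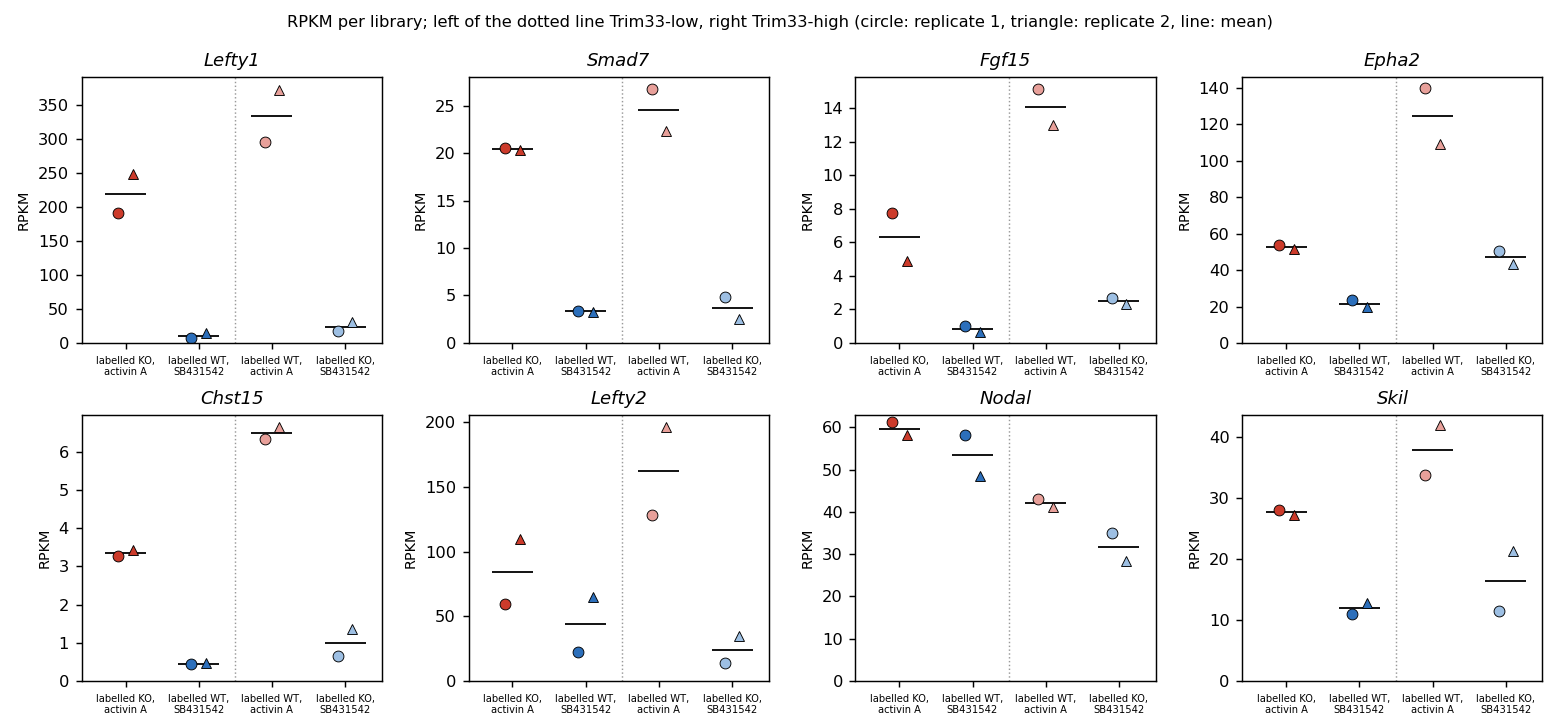
RPKM (vertical axes, from 0) of 5 called genes and of Lefty2, Nodal and Skil in the 4 labelled groups. Circles are replicate 1, triangles replicate 2 and lines the mean of 2 libraries; groups left of the dotted line are Trim33-low. In the 5 called genes both activin A libraries lie above both SB431542 libraries on the left, while for Lefty2 the activin A library at 59.1 RPKM lies below the SB431542 library at 65.2 RPKM.

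**Figure D3:**
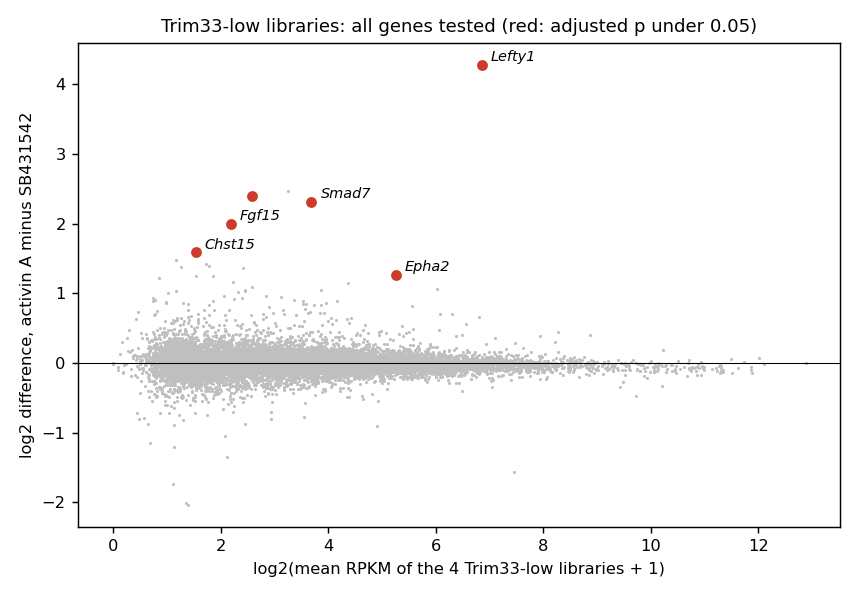
Log2 difference of activin A minus SB431542 (vertical axis) against log2 of the mean RPKM of the 4 Trim33-low libraries plus 1 (horizontal axis); each of the 11914 points is a gene, the 6 called genes are red and 5 of them carry a name. Lefty1 stands highest at 4.28, and no gene below 0 is red.

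Of the 5 called genes described, Epha2 and Chst15 have an entry in the RefSeq promoter table (GRCm38.p6), and the 250 bases before the annotated start are shown for them because both rose in the comparison; they are not on the list of targets and feedback genes and were chosen after their values were seen. The windows end at the RefSeq start, which can differ from the gene bounds above. Each was searched on both strands for CAGAC, bases bound by SMAD proteins, and for TGTNNATT, the core of the FOXH1 motif; the motifs do not overlap in these windows, and capitals mark the matches. Chst15 has an alternative start, whose window overlaps the printed one and is not printed. That window holds the same CAGAC bases as the printed one and no TGTNNATT.
Epha2, chr4:141300971-141301220, plus strand: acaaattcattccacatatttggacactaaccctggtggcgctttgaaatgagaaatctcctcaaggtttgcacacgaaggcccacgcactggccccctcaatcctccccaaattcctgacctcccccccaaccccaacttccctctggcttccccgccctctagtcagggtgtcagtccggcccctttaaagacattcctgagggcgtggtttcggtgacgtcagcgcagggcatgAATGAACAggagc
Chst15, chr7:132317229-132317478, minus strand: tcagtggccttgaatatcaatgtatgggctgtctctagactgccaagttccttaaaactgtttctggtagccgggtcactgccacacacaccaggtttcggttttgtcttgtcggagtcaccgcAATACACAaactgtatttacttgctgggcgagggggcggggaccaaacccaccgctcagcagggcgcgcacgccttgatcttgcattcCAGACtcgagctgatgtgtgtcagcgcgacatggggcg

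The Epha2 window holds 1 match to TGTNNATT, on the reverse strand, and none to CAGAC. The Chst15 window holds 1 match to each. Over all 32851 windows of 250 bases in the table, 42.2% hold CAGAC, 10.9% hold TGTNNATT and 4.36% hold both, so a match in 1 window describes the sequence only.

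Among the other targets and feedback genes of the pathway none passed the test, which did not use the replicate numbers. Of 15 genes on that list 13 were tested, 2 were higher (Lefty1 and Smad7, against 0.0504% of all genes) and none was lower. At an unadjusted p under 0.05, limma had 6 higher and none lower, against 1.15% and 0.487% of all genes tested. The median log2 difference was 0.38 over the 13 and -0.0035 over all genes tested. The groups lay apart, activin A above, in 9 of the 13, as in 11.6% of all genes. Ldlrad4 and Cer1 were under the filter of 1 RPKM in at least 2 of the 8 libraries. A gene such as Chst15, below 1 RPKM in both SB431542 libraries, met that filter through activin A libraries.

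Lefty2, the neighbour and close relative of Lefty1, differed widely between replicates. It read 59.1 and 109.7 RPKM with activin A and 22.3 and 65.2 RPKM with SB431542. The groups overlapped, since the lower activin A library was below the higher SB431542 library. Within each replicate number the activin A library was the higher, though the labels do not say what a number marks. The log2 difference was 1.06 ± 0.55 (SE, limma adjusted p = 1), with a 95% interval of -0.18 to 2.29. Lefty2 spans bases 180893108 to 180899103 of chromosome 1, and 17.9% of the 50-base words of the Lefty1 transcript also occur in Lefty2, so some reads can be shared.

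Pmepa1, which encodes a membrane protein that sequesters SMAD2 and SMAD3, read 7.92 and 5.45 RPKM with activin A and 1.94 and 1.97 RPKM with SB431542 (log2 difference 1.36, limma adjusted p = 0.191). Skil, which encodes the SMAD corepressor SnoN, read 28.1 and 27.2 RPKM against 11.1 and 12.7 RPKM (1.16, limma adjusted p = 0.647). Both genes thus had groups that did not overlap, without passing the test over all genes. Ski, a relative of Skil, read 19.4 and 20.2 RPKM against 14.3 and 15.8 RPKM (0.38, limma adjusted p = 1). Tdgf1, the co-receptor gene of Nodal, was the most abundant of the list, with 563 and 507 RPKM against 425 and 381 RPKM (0.41, limma adjusted p = 1). The pseudoreceptor gene Bambi read 3.28 and 2.84 RPKM against 2.14 and 2.56 RPKM. The other 4 tested genes of the list apart from Nodal, which were Tgif1, Tgif2, Smurf1 and Smurf2, had log2 differences of 0.08 to 0.25.

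**Figure D4:**
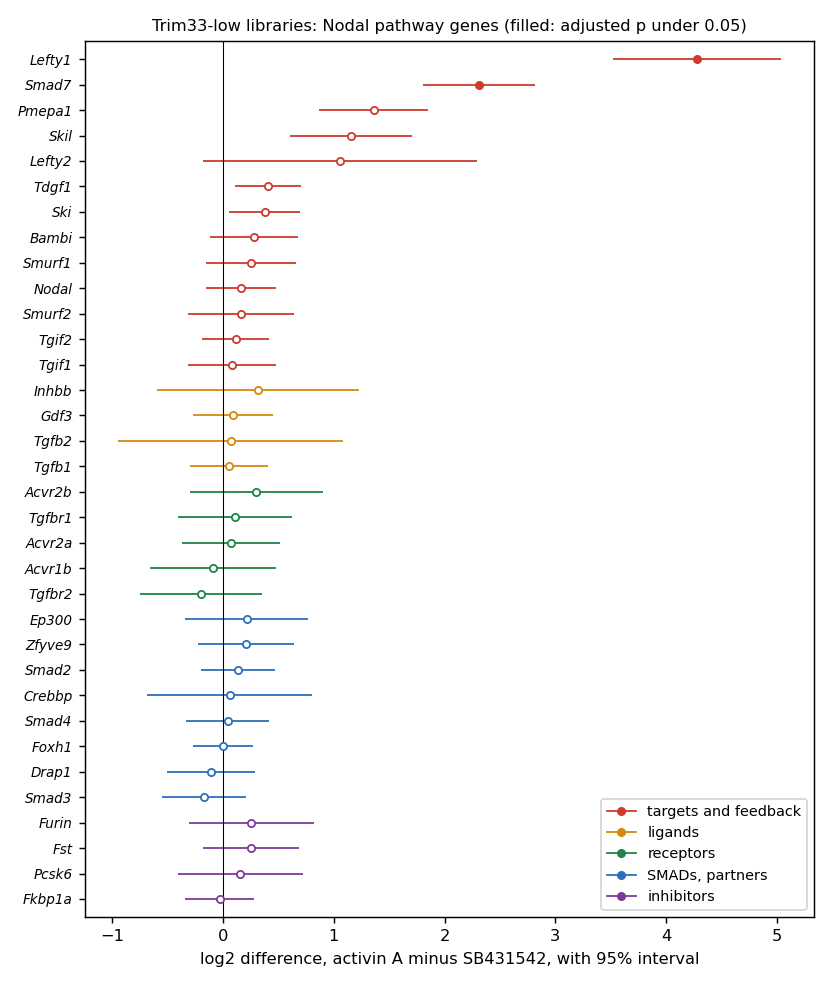
Log2 difference of activin A minus SB431542 in the Trim33-low libraries (horizontal axis) with its 95% interval from limma, unadjusted, for the 34 tested genes of the pathway lists (vertical axis), coloured by role; filled points passed the test. Only Lefty1 and Smad7 are filled, and the intervals of 28 genes include 0.

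Genes that carry or receive the signal did not pass. Nodal itself, the main ligand gene of ES cells, read 61.2 and 58.1 RPKM with activin A and 58.2 and 48.5 RPKM with SB431542. The lower activin A library was just below the higher SB431542 library, though within each replicate number activin A was the higher. The log2 difference of 0.16 had a 95% interval of -0.15 to 0.48. Gdf3, a related ligand gene, was the most abundant ligand at 130.3 and 126 RPKM against 126 and 115 RPKM. Of 10 ligand genes 5 were tested and none was called, with none at an unadjusted p under 0.05 in limma. Gdf1 was listed at 0 in all 8 libraries, and Inhba, which encodes the activin A subunit, was at or below 0.452 RPKM.

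Of 9 receptor and co-receptor genes 6 were tested and none was called. Of the 6, Tdgf1 alone was at an unadjusted p under 0.05 in limma, against 1.64% of all genes tested. The type I receptor gene Acvr1b, a target of SB431542, read 4.01 and 4.93 RPKM against 4.43 and 5.21 RPKM. The type II receptor genes Acvr2a and Acvr2b stood at 2.77 to 5.90 RPKM over the 4 libraries.

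All 8 genes of SMADs and their partners were tested, and none was called or had an unadjusted p under 0.05 in limma. Smad2 read 10.6 and 9.64 RPKM against 10.1 and 8.20 RPKM, Smad3 3.05 and 2.44 RPKM against 3.29 and 3.13 RPKM, and Smad4 17.8 and 13.3 RPKM against 15.8 and 14.2 RPKM. Foxh1, a partner gene, read 37.4 and 42.2 RPKM against 37.8 and 41.9 RPKM, with a 95% interval of -0.27 to 0.27 on the log2 scale. Of 10 inhibitors and processing genes 7 were tested and Lefty1 was the 1 called, against 0.0504% of all genes tested. Fst, which encodes the activin-binding protein follistatin, read 3.46 and 3.53 RPKM against 2.86 and 2.69 RPKM.

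The neighbouring BMP branch gave no call. Of 12 BMP-SMAD target genes 10 were tested, with 1 higher and none lower at an unadjusted p under 0.05 in limma. Of 15 BMP pathway genes 9 were tested, also with 1 higher and none lower. The shares over all genes tested were 1.15% higher and 0.487% lower. Smad6, the BMP-side relative of Smad7, read 3.28 and 1.95 RPKM against 1.66 and 1.14 RPKM (log2 difference 0.57, limma adjusted p = 1). Id3, a classical BMP target gene, read 120.2 and 110.8 RPKM with activin A and 169 and 127 RPKM with SB431542 (-0.34, limma adjusted p = 1).

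Pluripotency genes had medians near that of all genes. The median log2 difference was 0.0079 over 11 core genes, 0.0042 over 15 naive genes and 0.07 over 13 formative and primed genes tested, and limma called none of them. At an unadjusted p under 0.05 it had 1 core gene higher, 1 naive gene lower and no formative gene. The shares over all genes tested were 1.15% higher and 0.487% lower. Nanog, a reported target of activin signalling, read 321 and 233 RPKM with activin A and 263 and 167 RPKM with SB431542. The treatments thus overlapped, with activin A the higher within each replicate number. Klf4, the naive gene with the lowest p, read 26.4 and 21.3 RPKM against 38.1 and 32.0 RPKM (log2 difference -0.54, limma adjusted p = 1).

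Of 17 mesendoderm regulators 7 were tested and none was called; limma had 3 higher and none lower at an unadjusted p under 0.05. Over all genes tested these shares were 1.15% and 0.487%. The median log2 difference was 0.50 over the 7 and -0.0035 over all genes tested. Wnt3, a ligand gene of the primitive streak, read 3.31 and 4.97 RPKM against 0.927 and 1.38 RPKM (1.24, limma adjusted p = 0.213). Eomes, a T-box factor gene, read 2.58 and 2.34 RPKM against 1.77 and 1.09 RPKM (0.52, limma adjusted p = 1). The 10 members under the filter included Mixl1, Gsc and Foxa2.

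Fgf15 was the 1 call among 17 genes of FGF signalling and ERK feedback, against 0.0504% of all genes tested. The median log2 difference of the 17 was 0.02. Spry4, a feedback inhibitor gene of ERK, read 19.5 and 13.9 RPKM with activin A and 24.0 and 22.8 RPKM with SB431542 (-0.48, limma adjusted p = 1). Epha2 was the 1 call among 15 tested genes of Eph receptors and ephrins, against the same share of all genes. The median of the 15 was 0.05. The ephrin gene Efnb1 read 5.76 and 6.02 RPKM against 3.17 and 2.13 RPKM (0.93, limma adjusted p = 0.476). Of 7 tested genes of the TIF1 family and its heterochromatin partners none was called or had an unadjusted p under 0.05 in limma. Trim24, the nearest relative of Trim33, read 43.0 and 37.7 RPKM against 46.0 and 35.5 RPKM, and Trim28 read 733 and 618 RPKM against 739 and 576 RPKM.

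The same treatments were then compared in the 4 Trim33-high libraries, labelled WT with activin A and KO with SB431542, which share no library with the Trim33-low set. There limma called 5 genes higher (0.042%) and none lower, with 241 genes at an unadjusted p under 0.05 in either direction (2.02%). The groups lay apart, activin A higher, in 9.25% of all genes. All 5 (100%) were among the 6 calls of the Trim33-low libraries, of which they make up 83.3%. Both comparisons came from the same fit and share each gene's estimate of the spread, so their calls are not independent. Across the 11914 genes the log2 differences of the Trim33-low and Trim33-high sets had a Pearson r of 0.42, a description, since the genes of a set come from the same libraries.

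The test of the difference between the sets called no gene in limma, with 76 genes (0.638%) at an unadjusted p under 0.05 and a lowest adjusted p of 0.526. By the labels as written this is the test of the main effect of genotype. If genotype followed the Trim33 level instead, it would be the test of the interaction of genotype and treatment. The sets also differed in Y-linked transcripts, so Trim33 and other differences between the sets cannot be told apart. For the 5 called genes described the 95% interval of the difference, Trim33-low minus Trim33-high on the log2 scale, included 0. It ran from -0.58 to 1.56 for Lefty1, -0.89 to 0.54 for Smad7, -0.80 to 0.60 for Fgf15, -0.61 to 0.37 for Epha2 and -0.97 to 0.29 for Chst15. These intervals do not show that the responses were alike. For Lefty2 the Trim33-high libraries read 128 and 196 RPKM with activin A and 13.7 and 34.8 RPKM with SB431542, a log2 difference of 2.80 against 1.06 in the Trim33-low libraries. The difference between these was -1.75 (95% interval -3.50 to 0.0069, limma unadjusted p = 0.0507, adjusted p = 1.0).

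The levels themselves lay apart between the sets for some of the called genes, a difference not tested here. With activin A, Epha2 read 140.0 and 109.3 RPKM in Trim33-high libraries beside 53.9 and 51.8 RPKM in Trim33-low ones, and with SB431542 50.5 and 43.5 RPKM beside 23.4 and 19.6 RPKM. Its values in Trim33-low libraries with activin A thus lay next to those in Trim33-high libraries with SB431542. Chst15 read 6.33 and 6.65 RPKM with activin A and 0.645 and 1.35 RPKM with SB431542 in the Trim33-high libraries. Fgf15 read 15.1 and 13.0 RPKM and 2.68 and 2.34 RPKM there, above the Trim33-low libraries of the same treatment. Lefty1 was likewise above them, at 296 and 373 RPKM with activin A and 17.4 and 30.6 RPKM with SB431542. Smad7 in the Trim33-high libraries was above with activin A, at 26.8 and 22.3 RPKM. With SB431542 it read 4.83 and 2.54 RPKM there, and the sets overlapped.

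**Figure D5:**
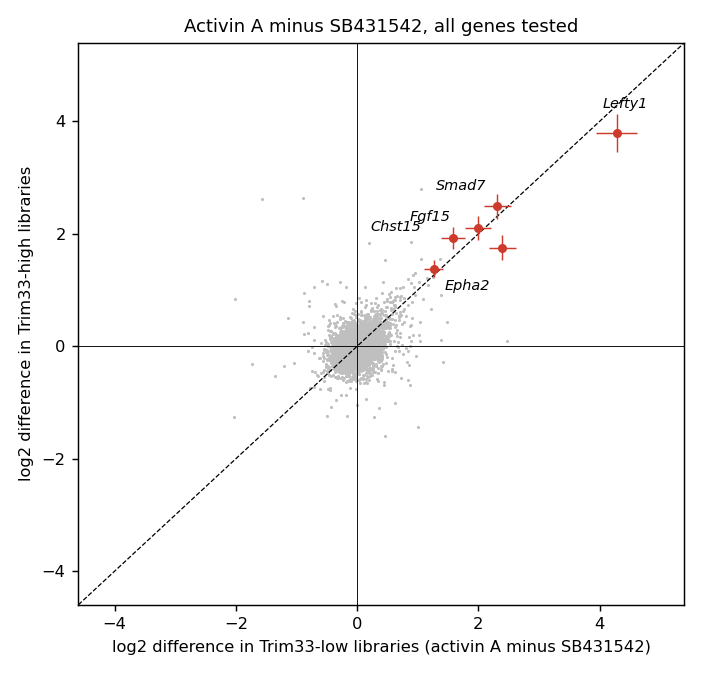
Log2 difference of activin A minus SB431542 in the Trim33-high libraries (vertical axis) against that in the Trim33-low libraries (horizontal axis) for the 11914 genes tested; red points are the 6 called genes with their SE, 5 of them named, and the dashed line marks equal differences. All 6 lie in the upper right, with Lefty1 at 4.28 and 3.79.

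Taking the genotype labels as written gives another comparison, of the libraries labelled KO with activin A against those labelled KO with SB431542. It sets Trim33-low against Trim33-high libraries, and Trim33 itself reads 2.53 and 2.79 RPKM against 18.3 and 24.6 RPKM. It shares the activin A libraries with the comparison above. It called 856 genes higher (7.18%) and 392 lower (3.29%) in limma. Lefty1, Smad7, Fgf15 and Chst15 remained called, with log2 differences of 3.18, 2.24, 1.03 and 1.15. Epha2 did not (0.17, limma adjusted p = 0.529), and Nodal did, at 0.90 (limma adjusted p = 0.00716).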

How the data were processed

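Libraries were made from total RNA of mouse ES cells with a TruSeq RNA kit, per the labels' protocols. Tools and build in the submitters' processing notes are mm10, Bowtie2 2.3.3, featureCounts 2.0.1, SAMtools 1.9, DESeq2 and FastQC 0.11.5, with no role for each. Strand use was not given in the sources used here. No unit is named in the deposited table. Its values behave as RPKM by the authors, because a value times the length of a single-exon gene is mostly a whole number of reads. This held within 0.05 reads for 90.8% to 94.5% of the values above 0 and under 20 reads. These were 234 to 289 values per library, from 2281 single-exon genes, and also gave the depth. Between replicates of a Trim33-low group the chi-square per degree of freedom was 15.2 and 20.7 over single-exon genes, above sampling noise. Between same-numbered Trim33-low libraries of unlike treatment it was lower, at 10.4 and 11.3. Each library was counted as 1 replicate, and these values do not show that replicates were separate cultures.

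From 24421 names, 27 date-like ones were left out, and genes with at least 1 RPKM in at least 2 of the 8 libraries were kept. Values were tested as log2(RPKM + 1), which understates changes of low genes, with limma 3.58.1 in R 4.3.3 (4 group means, 8 libraries, 4 residual degrees of freedom, intensity trend, two-sided). Fold changes are ratios of mean RPKM. The contrast was activin A, labelled KO, minus SB431542, labelled WT. Members and gene lists were chosen with earlier results of these data known, and all lists are described by counts and medians without a test. By rule, named genes are Trim33, Lefty1, Lefty2, Nodal, at most 12 calls in each direction, by size of the log2 difference, without overlap of the groups (unnamed gene models, pseudogenes and date-like names left out), up to 4 called members of each list and the tested members of the lists of targets, ligands, receptors, SMADs and inhibitors. One called gene, also taken off its list, is not reported here. Any other gene was picked after its values were seen. The fixed rule for promoters took called members of the target list, none of which has an entry in the RefSeq table. Positions are from GENCODE M21. Alternatives changed the pseudocount, filter, scaling, trend, block, labels and libraries.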

Additional observations from a re-analysis of the deposited data

How the results depend on the processing

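The count of 6 genes higher and 0 lower rests on settings. Without a filter on low values it was 0 higher and 2 lower (2 microRNA genes), with 0 targets of the pathway list, 1 gene in the test between the Trim33-low and Trim33-high sets, and 0 higher and 1 lower in the Trim33-high set; 19308 genes were then tested. With the 4 Trim33-low libraries alone it was 1 higher, also the 1 target called. With the genotype labels as written it was 856 higher and 392 lower, with 5 targets called and Tdgf1 reversed, at -0.072 (adjusted p = 0.777) against 0.41. Leaving out 1 library at a time gave 1 to 2 higher, 0 to 1 lower (Sumo2, without replicate 2 of the activin A group), 1 target each time and 0 to 1 genes in the test between sets (without either activin A library). Lefty1 was called each time, Smad7, Epha2 and Chst15 never. Without SB431542 replicate 1 or activin A replicate 1, Lefty1 alone was called. Pseudocount 0.1, a filter on the mean and quantile normalization kept all 6 genes, while median-of-ratios scaling and no intensity trend kept 5, without Epha2.

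The replicate numbers are shared only as numbers, with 2 per group. Deviations of same-numbered libraries had r = 0.60 between the 2 Trim33-low groups, 0.37 between the 2 Trim33-high groups and -0.14 to 0.21 otherwise, over 11914 genes. With the number as a block in the fit of 8 libraries, 5 genes were higher and 0 lower in the Trim33-low set (without Chst15) and 9 higher in the Trim33-high set. A block in the fit of the 4 Trim33-low libraries alone, chosen after seeing the data, gave 120 higher and 47 lower, including all 6 genes. The 7 targets among them were Lefty1, Smad7, Skil, Tdgf1, Pmepa1, Lefty2 and Ski. Lefty2 (1.06, limma adjusted p = 8.08e-04) was higher with activin A within each number. In all, 131 of 168 values of 12 genes kept their direction and side of the threshold, 28 lost and 8 gained a call, and 1 reversed. The cause was not tested. Replicates of the Trim33-low groups differed by more than counting error (chi-square per degree of freedom 15.2 and 20.7), and depth was not varied.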

Other observations

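Several further genes, picked after their values were seen, had non-overlapping treatments in the Trim33-low libraries without passing the test. Over all genes tested the treatments lay apart in 11.6% with activin A higher and in 11.3% with it lower, so this trait alone is common. Bhlhe40, a circadian and stress-response repressor gene, read 8.03 and 6.42 RPKM with activin A and 2.68 and 2.99 RPKM with SB431542 (log2 difference 1.09, limma adjusted p = 0.116). Irf1, an interferon regulatory factor gene, read 16.1 and 21.2 RPKM against 7.68 and 9.20 RPKM (1.05, limma adjusted p = 0.476). Pmaip1, which encodes the pro-apoptotic protein NOXA, read 83.9 and 82.6 RPKM against 48.9 and 52.5 RPKM (0.70, limma adjusted p = 0.411). Rara, a retinoic acid receptor gene, read 20.6 and 20.4 RPKM against 13.6 and 12.3 RPKM (0.62, limma adjusted p = 0.782). On the lower side Mir5119, a microRNA gene, was listed at 0 with activin A and at 2.66 and 2.01 RPKM with SB431542. Within this set it reached the filter value of 1 RPKM with SB431542 only. For so short a gene such values can rest on few reads, and its reads were not recovered.

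Sumo2, which encodes a ubiquitin-like modifier, read 46.2 and 148 RPKM with activin A and 302 and 204 RPKM with SB431542 in the Trim33-low libraries, and 315 and 306 RPKM against 50.7 and 49.4 RPKM in the Trim33-high ones. The libraries labelled KO were the lower ones in both sets. Sumo2 was picked after its values were seen, so this order is a description and says nothing of which labels are right. Gapdh, the glycolytic enzyme gene, read 17.7 and 17.9 RPKM against 18.7 and 61.8 RPKM in the Trim33-low libraries and 150 and 55.6 RPKM against 18.4 and 10.4 RPKM in the Trim33-high ones. Neither gene passed the test of the difference between the sets (limma adjusted p = 0.526 for Sumo2 and 1.0 for Gapdh). Aldoa, another glycolytic enzyme gene, read 427 and 452 RPKM with activin A and 440 and 482 RPKM with SB431542 in the Trim33-low libraries. Whether the listed values of Gapdh and Sumo2 follow their transcript levels was not tested.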
